A study of Mus musculus with 2 samples.

Results

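The 37 genes described here encode the core machinery of macroautophagy, from the kinase complex that starts it to the receptors that choose its cargo. They were taken from a list of gene symbols on the condition of at least 50 UMIs over both libraries, where a UMI (unique molecular identifier) marks 1 captured RNA molecule. All 37 met it, out of 32285 gene models measured and 14172 that met the same condition. The data are 2 droplet single-cell RNA libraries of mouse tumour cells enriched for the leukocyte surface protein CD45, 1 titled CEP, read here as the cepharanthine of the series title, and 1 titled "Vehide", read as vehicle and called Vehicle. Cepharanthine is a plant bisbenzylisoquinoline alkaloid. The design text gives 5 biological replicates per group, but cells carry no replicate label, so each group is 1 library and no test between CEP and Vehicle was possible. Tumour model, strain, age, sex, dose and schedule are not given in the sources used here. Every interval is a 95% interval that covers counting error only and leaves out the spread between animals, cells and library preparations.

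Macroautophagy wraps cytoplasm in a double membrane, the autophagosome, which then fuses with lysosomes. Nutrient or stress signals act on the ULK1 kinase complex, which turns on a class III phosphatidylinositol 3-kinase. Its lipid product recruits effectors that feed the growing membrane with lipid. A conjugation system related to ubiquitination then fixes LC3 and GABARAP proteins to that membrane, where cargo receptors bind them. Much of the control of this pathway acts on proteins, and RNA levels do not measure how much material passes through it. In macrophages the same machinery also takes part in handling engulfed particles.

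The CEP library held 9621 barcodes and 88721774 UMIs, and the Vehicle library 9989 barcodes and 81208647 UMIs, with median depths of 6621 UMIs per barcode in CEP and 6236 in Vehicle. The libraries shared 136 barcode sequences, 1.41% of those in CEP and 1.36% in Vehicle. Cells were sorted into 4 gates on raw UMIs of marker genes. The macrophage gate (C1qa, C1qb and C1qc) held 4706 CEP and 5160 Vehicle cells, the neutrophil gate (Csf3r and Cxcr2) 1687 and 2143, the T cell gate (Cd3d, Cd3e and Cd3g) 172 and 271, and the keratin-based epithelial gate (Krt8 and Krt18) 834 and 133. Kept cells in no gate numbered 2195 in CEP and 2263 in Vehicle. Levels are UMIs per 1000000 UMIs of the gate (CPM). A UMI of this assay counts a transcript end and levels were not scaled by length, so a level is compared for 1 gene across gates or libraries and not between genes.

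In the macrophage, neutrophil and T cell gates, CEP held more epithelial marker RNA than Vehicle, beside every comparison between the libraries there. In the macrophage gate the 7 epithelial markers summed to 339 CPM in CEP and 68.6 CPM in Vehicle, which is 5.09% and 0.967% of their sum in the epithelial gate. In the neutrophil gate they summed to 886 CPM in CEP and 136 CPM in Vehicle, and 28 CEP and 5 Vehicle cells that also passed the epithelial gate gave 15.3% and 1.75% of all neutrophil gate UMIs. In the T cell gate they summed to 819 CPM in CEP and 40.3 CPM in Vehicle. The 9 neutrophil markers in the T cell gate were high in both libraries, at 26743 CPM in CEP and 41589 CPM in Vehicle. The differences between libraries that are described at length are therefore also given for cells with no Krt8 or Krt18 UMI, called keratin-free. For T cells this also excludes any Csf3r or Cxcr2 UMI, and such T cells are also called marker-free. Other markers were not used to exclude cells from these sets. In keratin-free cells the epithelial markers summed to 16.7 CPM in CEP and 15.6 CPM in Vehicle macrophages, 31.0 and 12.8 CPM in neutrophils, and 20.8 and 44.7 CPM in T cells. Keratin-free neutrophils still held more fibroblast or mural marker RNA in CEP, 960 CPM against 10.7 CPM in Vehicle, and its part in the results was not tested. In the T cell gate these markers summed to 301 CPM in CEP and 1212 CPM in Vehicle, and their part there was not tested either. The epithelial gate held neutrophil markers at 659 CPM in CEP and 353 CPM in Vehicle, and fibroblast or mural markers at 32.9 and 2.62 CPM. In epithelial cells of exactly 1 gate these sums were 422 and 243 CPM, and 34.1 and 2.69 CPM. Their part in the epithelial ratios was not tested. Over both libraries together, none of the 7 epithelial markers was at 0 in any gate, and 3 or 4 of the 4 erythroid markers were at 0 in every gate.

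The stretch just before the start site is shown for 4 members, chosen after their values were seen, that recur in the comparisons below: Atg2a (chr19:6241418-6241667, plus strand), Atg3 (chr16:45158579-45158784, plus strand), Gabarapl1 (chr6:129532942-129533159, plus strand) and Sqstm1 (chr11:50210828-50211070, minus strand). Sequences are from RefSeq, build GRCm38.p6, written 5′ to 3′, and end before the transcribed part of the gene model. Capitals mark CACGTG, the E-box core that MiT-TFE factors bind, and GGGCGG or its reverse complement, the GC box.
Atg2a: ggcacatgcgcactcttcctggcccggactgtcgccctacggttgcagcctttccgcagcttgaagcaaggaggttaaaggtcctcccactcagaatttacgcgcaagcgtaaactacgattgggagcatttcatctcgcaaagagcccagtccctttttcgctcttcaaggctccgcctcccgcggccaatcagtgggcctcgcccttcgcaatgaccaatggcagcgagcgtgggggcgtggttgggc
Atg3: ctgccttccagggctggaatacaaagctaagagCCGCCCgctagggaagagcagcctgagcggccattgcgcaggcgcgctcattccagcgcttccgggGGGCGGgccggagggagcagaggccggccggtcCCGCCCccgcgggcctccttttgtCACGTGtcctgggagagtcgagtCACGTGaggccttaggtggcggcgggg
Gabarapl1: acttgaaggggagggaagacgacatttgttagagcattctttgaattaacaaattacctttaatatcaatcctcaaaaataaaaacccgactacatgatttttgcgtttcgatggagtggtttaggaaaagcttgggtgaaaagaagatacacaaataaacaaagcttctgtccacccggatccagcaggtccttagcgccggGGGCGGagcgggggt
Sqstm1: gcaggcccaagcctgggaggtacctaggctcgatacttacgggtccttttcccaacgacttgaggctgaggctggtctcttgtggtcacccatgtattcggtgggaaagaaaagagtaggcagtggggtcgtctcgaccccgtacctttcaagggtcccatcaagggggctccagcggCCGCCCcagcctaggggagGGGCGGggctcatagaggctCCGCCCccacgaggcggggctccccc
Atg3 held CACGTG 94 and 71 bases before its RefSeq start, and none of the other shown stretches held it. Sqstm1 had GC boxes at 72, 53 and 33 bases before its start, and Atg3 had them at 217, 151 and 118 bases. Gabarapl1 had 1 in the part shown, at 47 bases, and the Atg2a stretch held none of the motifs. Over the 250 bases before each RefSeq start, 31 of the 37 genes matched the table with 35 start sites. CACGTG stood in 3 of those 35 (8.57%), those of Atg3, Atg5 and Atg7, against 6.02% of all 32851 start sites. TGACNNNGC, the core of the antioxidant response element that NRF2 binds, also stood in 3 (8.57%), those of Atg13, Tax1bp1 and Ulk2, against 10.2% of all. GGGCGG stood in 20 (57.1%), against 32.7% of all. Both strands were searched, and a match is a string of letters and not a shown binding site.

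Across gates, neutrophils held a set of the members at higher CPM than macrophages. Neutrophils were shallower, with median depths of 1776 UMIs per cell in CEP and 1864 in Vehicle, against 10017 and 11228.5 in macrophages. Median depths were 2860.5 and 2684 in T cells and 26412.5 and 27614 in epithelial cells. A CPM is a share of a gate's UMIs, so a higher CPM need not be more UMIs per cell. The 37 members together summed to 4565 CPM in CEP and 4773 CPM in Vehicle neutrophils, beside 2499 and 2402 CPM in macrophages, 2442 and 2469 CPM in T cells and 2931 and 2941 CPM in epithelial cells. In both libraries, 12 of the 37 were more than 2-fold higher in the neutrophil than in the macrophage gate, where 11.6% of 13029 genes were. One member, Atg10, the conjugating enzyme for ATG12, was more than 2-fold lower, where 24.5% of genes were. The same 12 and the same Atg10 passed in keratin-free cells, beside 11% and 38.3% of genes. The design gives no test between gates, since 2 libraries allow no exact two-sided sign-flip p below 0.5.

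**Figure D1:**
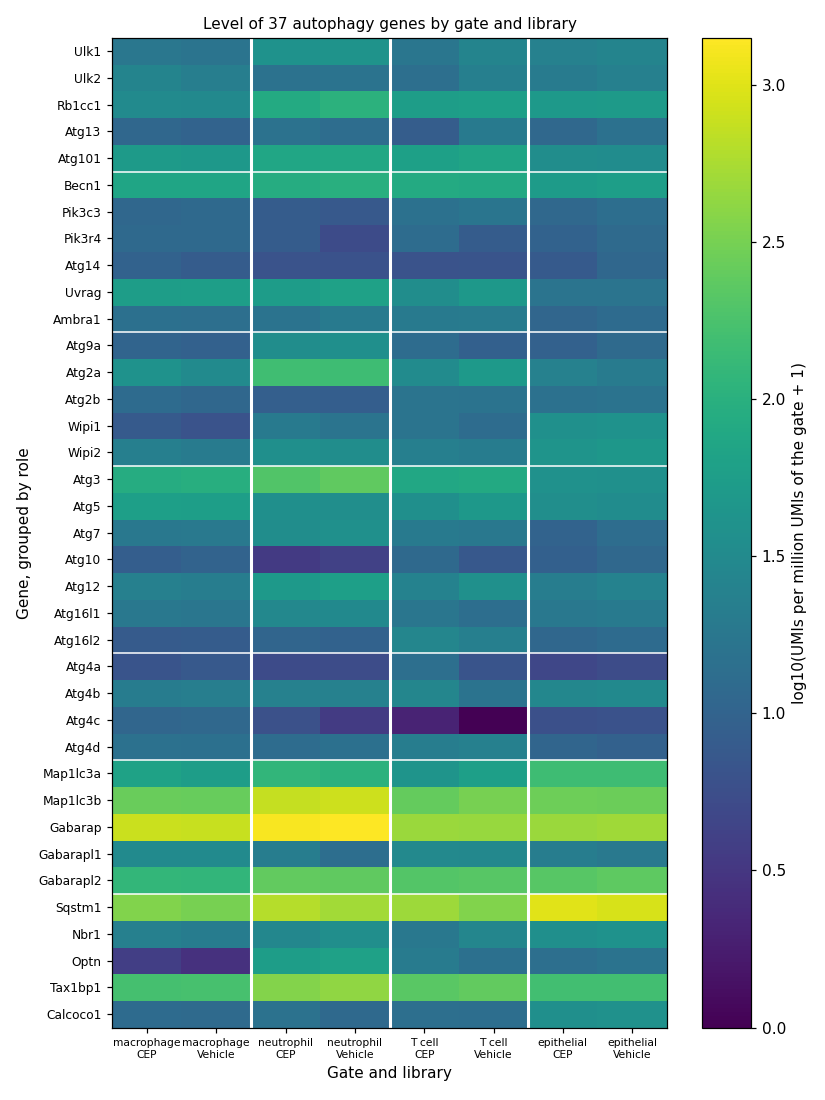
Level of each of the 37 genes in each gate and library, as log10 of CPM plus 1, with genes grouped by role from the ULK1 complex at the top to cargo receptors at the bottom. The neutrophil columns are brighter than the macrophage columns for Optn, Atg2a and Map1lc3b, and the epithelial columns are brightest for Sqstm1 and Map1lc3a.

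Those 12 spanned every step except the class III kinase and the ATG4 proteases. From the initiation complex they were Ulk1, a kinase that starts the pathway, and Rb1cc1, its large scaffold. Rb1cc1 stood at 83.2 CPM in CEP and 106 CPM in Vehicle neutrophils, against 30.8 and 30.2 CPM in macrophages. From the membrane-supply step they were Atg9a, a lipid scramblase, Atg2a, a lipid-transfer protein, and Wipi1, which binds the kinase's lipid product. Atg2a was at 150 CPM in CEP and 150 CPM in Vehicle neutrophils, and at 39.6 and 31.3 CPM in macrophages, so both neutrophil values lay above both macrophage values. From conjugation they were Atg7, the activating enzyme, Atg3, the conjugating enzyme for LC3, and Atg12, the ubiquitin-like partner of ATG5. The rest were Map1lc3b and Gabarapl2 of the LC3 and GABARAP family and the receptors Optn and Tax1bp1.

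Optn, the receptor optineurin, had the highest ratio of neutrophil over macrophage level among the 37 in both libraries. It stood at 55.8 CPM (49.4 to 62.8) in CEP and 62.2 CPM (55.9 to 68.9) in Vehicle neutrophils, against 2.89 and 1.82 CPM in macrophages. Those are ratios of 19.3 in CEP and 34.1 in Vehicle. The T cell gate had 19.5 and 13.7 CPM and the epithelial gate 13.1 and 14.9 CPM, and the intervals of these gates overlapped each other in both libraries. In T cells also free of Csf3r and Cxcr2 UMIs, Optn had only 5 UMIs in CEP and 6 UMIs in Vehicle.

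Gabarap, which binds receptors and the ULK1 complex at the membrane, was highest in neutrophils, at 1298 CPM (1267 to 1330) in CEP and 1412 CPM (1382 to 1443) in Vehicle. Macrophages came next at 790 and 768 CPM. T cells, at 467 and 457 CPM, and epithelial cells, at 468 and 508 CPM, were lowest, and their intervals overlapped in both libraries. Map1lc3b, the most widely used LC3 marker of autophagosomes, was at 743 and 810 CPM in neutrophils and between 255 and 315 CPM in the other 3 gates of either library. In both libraries, neutrophils were the gate of highest level for the same 15 members, epithelial cells for 7, T cells for 4 and macrophages for 3 (Atg5, Atg4c and Gabarapl1). The same shares over all genes were not computed, so these counts have no background to be read against. The 4 of T cells (Pik3c3, Ambra1, Atg16l2 and Atg4d) each had under 50 UMIs in that gate over both libraries.

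Epithelial cells held Sqstm1 and Map1lc3a at the highest levels of the 4 gates. More than 2-fold above macrophages in both libraries were Sqstm1, Map1lc3a, Wipi1, Optn and Calcoco1, 5 of 37 where 23.1% of genes were, a smaller share than among all genes. Sqstm1, which encodes p62, a receptor for ubiquitinated cargo, was at 1010 CPM (998 to 1023) in CEP and 921 CPM (891 to 952) in Vehicle epithelial cells. Its order was the same in both libraries: epithelial, neutrophil (631 and 520 CPM), T cell (491 and 354 CPM) and macrophage (361 and 319 CPM), although the Vehicle intervals of T cells (320 to 391) and macrophages (315 to 324) overlapped. Calcoco1, a receptor for autophagy of the endoplasmic reticulum, was at 35.6 and 37.7 CPM in epithelial cells and 11.8 and 11.1 CPM in macrophages. Lower in epithelial cells were Uvrag, which directs the kinase complex to endosomes, at 15.5 and 15.2 CPM against 56.3 and 57.4 CPM in macrophages, and Atg3, at 37.9 and 37.2 CPM against 88.3 and 93.0 CPM. These 2 of 37 compare with 19.5% of genes. The same 5 and the same 2 passed when epithelial cells of exactly 1 gate were set against keratin-free macrophages, beside 23.9% and 19.6% of genes.

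**Figure D2:**
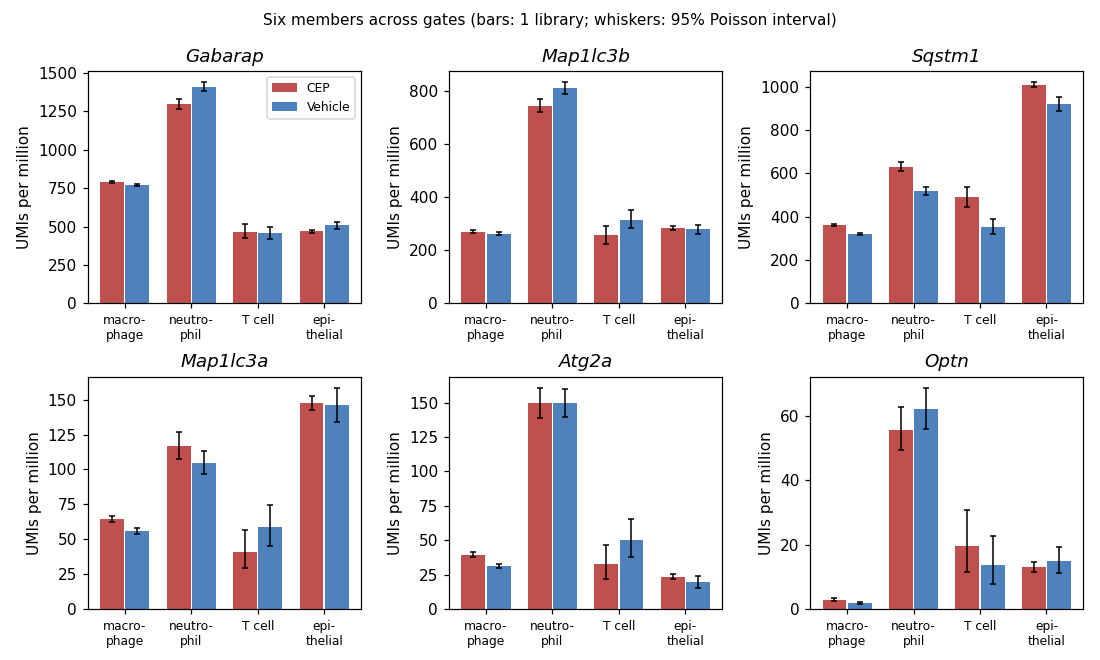
Level of 6 members in CPM, for CEP (red, left bar) and Vehicle (blue, right bar) in each gate, with bars for 1 library each and whiskers for the 95% Poisson interval. Gabarap, Map1lc3b, Atg2a and Optn peak in neutrophils, and Sqstm1 and Map1lc3a in epithelial cells, in both libraries.

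Counts of members past 2-fold from macrophages in T cells lay below the share of all genes, and 22 of the 37 had under 50 UMIs there. Atg16l2, a relative of the scaffold ATG16L1, was 3.93-fold above its macrophage level in CEP T cells and 3.08-fold above it in Vehicle T cells, at 27.0 and 22.0 CPM from 25 and 24 UMIs. In marker-free T cells it was at 33.6 and 26.6 CPM, and it passed there too. Wipi1 and Optn also passed in the full gate, making 3 of 37 where 14.3% of genes did. Wipi1 did not pass in the marker-free T cells, where it had 3 CEP and 4 Vehicle UMIs. Atg4c, one of the 4 proteases that process LC3 and GABARAP, had 1 UMI in CEP and 0 UMIs in Vehicle T cells, too few for a ratio, and was the member counted as lower, where 8.48% of genes were. In marker-free T cells 2 members passed as higher, Atg16l2 and Optn (14.3% of genes), and 2 as lower, Atg4c with no UMI in either library and Gabarap at 389 and 370 CPM (10.2%).

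Several members had lower CPM in cycling cells than in the other cells of their gate. In macrophages with at least 2 UMIs of Mki67 and Top2a (924 CEP and 1063 Vehicle cells), 9 of 37 members were more than 1.2-fold lower than in the rest in both libraries, where 9.46% of 12764 genes were. They were Ulk1, Atg9a, Atg2a, Map1lc3a, Map1lc3b, Gabarap, Gabarapl1, Sqstm1 and Calcoco1. Gabarap was at 664 CPM in cycling and 844 CPM in other macrophages of CEP, and at 658 and 816 CPM in Vehicle. Atg2a in cycling macrophages was at 0.614 of its level in the others in CEP and at 0.571 in Vehicle. The same 9 passed in keratin-free macrophages, joined by Wipi1 and Optn, 11 of 37 beside 10.3% of genes. Atg16l2 was the 1 member higher in cycling macrophages, where 25.9% of genes were, and also in keratin-free ones, where 23.9% were. In epithelial cells, 11 of 37 were lower in cycling cells, where 15.9% of genes were, and 7 of them were among the 9 of macrophages: Atg9a, Atg2a, Map1lc3a, Map1lc3b, Gabarap, Sqstm1 and Calcoco1. Calcoco1 was at 20.2 CPM in cycling and 48.2 CPM in other epithelial cells of CEP, and at 23.0 and 48.5 CPM in Vehicle, where the cycling cells numbered 38. Those cells held 1609604 UMIs in all and lie under the 50 cells set for a CEP over Vehicle ratio in a sub-gate. Low members there, such as Atg14 at 5.59 CPM, rest on few UMIs. Atg16l1, a scaffold of the conjugation step, was the 1 member higher in cycling epithelial cells, where 17.4% of genes were. Cycling macrophages were deeper, with median depths of 15666.5 UMIs in CEP and 17083 in Vehicle. Macrophages of none of the 3 marked sub-gates, only some of the cells compared, had 7897.5 and 9282. Cycling epithelial cells had 34543 and 39782, against 22995 and 24944 in the other epithelial cells. A lower CPM in deeper cells need not be fewer UMIs per cell, and the part of depth was not tested.

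Between the libraries, the members' median ratio lay near that of all genes in macrophages and below it in the other full gates. Most single differences were small. The median log2 ratio of CEP over Vehicle was 0.04 over the 37 members in macrophages and 0.02 over all 12764 genes with at least 50 UMIs there. In neutrophils 34 members had at least 50 UMIs, with a median of -0.04 beside 0.12 over 8367 genes. In T cells 15 did, with -0.17 beside 0.02 over 5071 genes, and in epithelial cells all 37 did, with -0.12 beside -0.04 over 10869 genes. Above the median of all genes lay 23 of 37 members in macrophages and 8 of 34 in neutrophils. In T cells 4 of 15 lay above it, and in epithelial cells 11 of 37. In keratin-free cells the medians were 0.05 in macrophages, 0.01 in neutrophils and -0.15 in T cells, each beside 0.00 over all genes. The ratio was past 1.2-fold higher in CEP for 4 members in macrophages (13.7% of genes) and lower for 0 (6.75%). It was higher for 5 and lower for 4 in neutrophils (38.8% and 12.7%), higher for 1 and lower for 6 in T cells (23.6% and 22.7%), and higher for 1 and lower for 7 in epithelial cells (11.3% and 17.4%). Past 1.5-fold, macrophages had 1 member higher (6.44% of genes) and 0 lower (1.29%), neutrophils 2 higher (22%) and 0 lower (2.03%), T cells 0 higher (6.84%) and 2 lower (6.8%), and epithelial cells 0 higher (2.87%) and 1 lower (3.87%). With the median of all genes set to 0, the 5 higher and 4 lower neutrophil members became 3 and 8, where 31.8% and 22.8% of genes were, and the 1 higher and 7 lower epithelial members became 2 and 6, where 13.4% and 14.4% were.

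In keratin-free macrophages and neutrophils and marker-free T cells, a smaller share of all genes was past 1.2-fold higher in CEP than in the full gates. Past 1.2-fold there were 3 members higher (7.42% of genes) and 0 lower (7.53%) in keratin-free macrophages, and 1 higher (15.6%) and 2 lower (13.3%) of 32 in keratin-free neutrophils. Marker-free T cells had 0 higher (21.3%) and 4 lower (21.7%) of 13, and epithelial cells of exactly 1 gate had 2 higher (11.1%) and 8 lower (17.6%) of 37. The 3 macrophage members were Optn, Atg2a and Atg14. In the full macrophage gate the 13 mitochondrial transcripts had a median log2 ratio of 0.19 and the 21 dissociation and heat genes one of 0.21, beside 0.02 over all genes. These medians were 0.20 and -0.02 in the full T cell gate, beside 0.02, and 0.04 and 0.12 in the epithelial gate, beside -0.04. In marker-free T cells they were 0.15 and -0.34, beside -0.0024 over all genes. The part of both lists in the members' values was not tested.

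**Figure D3:**
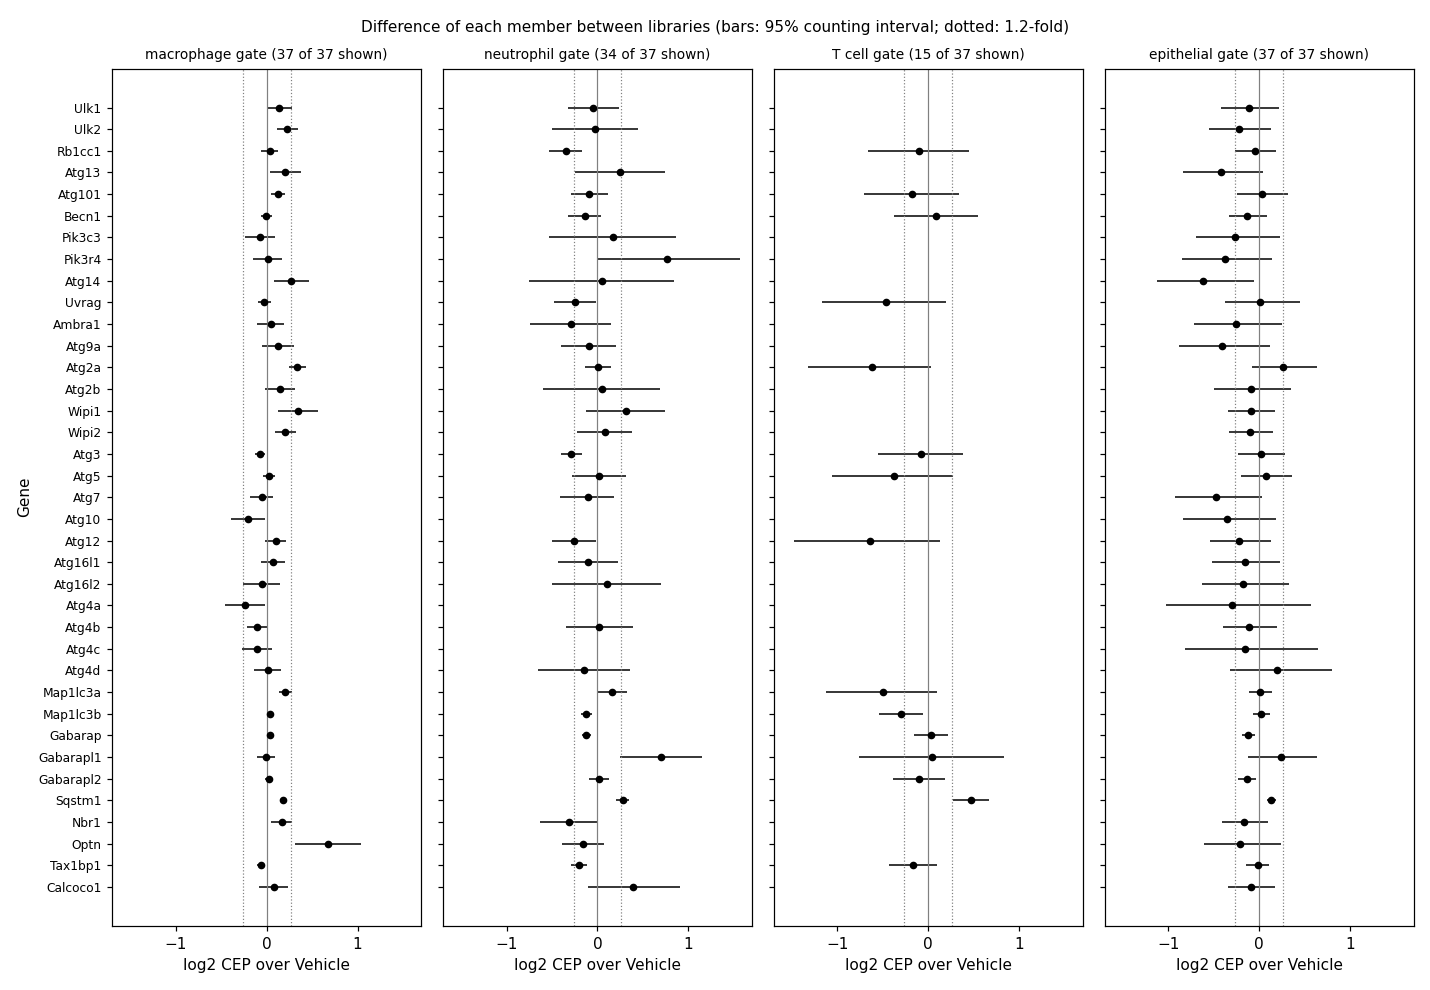
The log2 ratio of CEP over Vehicle for each member with at least 50 UMIs in the gate (37, 34, 15 and 37 of 37), with bars for the 95% counting interval and dotted lines at 1.2-fold. Macrophage values lie between -0.24 and 0.67 and most lie near 0, while the T cell intervals are wide, in a gate of 924304 CEP and 1092994 Vehicle UMIs.

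In the initiation complex, macrophages had Ulk2, a second starting kinase, at 25.1 CPM in CEP and 21.4 CPM in Vehicle, a log2 ratio of 0.23 (0.12 to 0.34) that was also 0.23 (0.11 to 0.35) in keratin-free cells. It lay under the 1.2-fold line. Ulk1 was at 16.9 and 15.4 CPM there (log2 0.14, 0.01 to 0.27), with 0.13 (-0.02 to 0.27) in keratin-free cells. Atg101, which holds ATG13 in the complex stable, was at 51.3 and 46.9 CPM (0.13, 0.05 to 0.21), with 0.18 (0.10 to 0.26) in keratin-free cells. Atg13, an adaptor of the complex, was at 10.3 and 8.94 CPM, a log2 ratio of 0.21 (0.03 to 0.38) that was 0.18 in keratin-free cells with an interval that held 0, and in epithelial cells at 10.7 and 14.2 CPM with an interval that held 0. In neutrophils Rb1cc1 was lower in CEP, at 83.2 CPM against 106 CPM in Vehicle, a log2 ratio of -0.35 (-0.53 to -0.17), and -0.27 (-0.47 to -0.08) in keratin-free cells. Among keratin-free neutrophils it was at 90.7 and 120 CPM in the cells with none of the 3 sub-gate markings (log2 -0.40, -0.65 to -0.16). It was at 64.3 and 94.5 CPM in interferon-marked cells and at 85.7 and 62.7 CPM in granule-marked ones, and both of those intervals held 0.

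In the class III kinase complex, Becn1, its best known regulatory subunit, was at 70.2 CPM in CEP and 70.4 CPM in Vehicle macrophages and at 52.6 and 57.4 CPM in epithelial cells. Pik3c3, the catalytic subunit, was at 10.4 and 10.9 CPM in macrophages, with an interval that held 0. Atg14, the subunit that directs the kinase to forming autophagosomes, lay on opposite sides in 2 gates: 8.76 and 7.27 CPM in macrophages, a log2 ratio of 0.27 (0.08 to 0.46), and 6.72 and 10.2 CPM in epithelial cells, a log2 ratio of -0.62 (-1.12 to -0.06). The epithelial value rests on 156 CEP and 39 Vehicle UMIs. Pik3r4, the regulatory kinase-like subunit, was at 8.74 and 11.3 CPM in epithelial cells, and at 7.30 and 4.27 CPM in neutrophils from 36 and 25 UMIs, a log2 ratio of 0.77 whose interval reached 0. In keratin-free neutrophils it had under 50 UMIs. Ambra1, a regulator of the complex, was at 14.8 CPM in CEP and 18.1 CPM in Vehicle neutrophils and at 9.95 and 11.8 CPM in epithelial cells. Uvrag in T cells was at 33.5 and 46.7 CPM from 31 and 51 UMIs, with an interval that held 0.

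The membrane-supply group had the highest summed log2 ratio of the 7 role groups in macrophages, at 89.6 CPM in CEP against 75.0 CPM in Vehicle, a log2 ratio of 0.26 (0.20 to 0.32), and 0.24 (0.18 to 0.31) in keratin-free cells. Most of that difference was Atg2a, at 39.6 CPM against 31.3 CPM, a log2 ratio of 0.34 (0.25 to 0.43). The Atg2a difference was as large in keratin-free macrophages, at 40.4 CPM in CEP and 31.4 CPM in Vehicle (0.37, 0.27 to 0.46). The Atg2a difference was present in keratin-free cycling macrophages (27.6 and 21.0 CPM), Arg1-marked macrophages (42.7 and 32.3 CPM) and unmarked ones (43.2 and 34.4 CPM). In keratin-free Gpnmb-marked macrophages, with 50 CEP and 26 Vehicle UMIs, the values were 28.9 and 37.5 CPM and the interval held 0. In neutrophils Atg2a was at 150 and 150 CPM in the full gate and at 171 and 152 CPM in keratin-free cells (log2 0.17, 0.02 to 0.31). In epithelial cells Atg2a was at 23.4 and 19.4 CPM, a log2 ratio of 0.26 whose interval held 0, and in T cells at 32.5 and 50.3 CPM from 30 and 55 UMIs. Atg2b, a relative of Atg2a, was at 11.5 and 10.4 CPM in macrophages, with an interval that held 0.

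The log2 ratio of Wipi1 in macrophages differed between all cells of the gate and keratin-free ones. It was at 6.89 CPM in CEP and 5.42 CPM in Vehicle macrophages, a log2 ratio of 0.35 (0.13 to 0.57), and at 5.37 and 5.34 CPM in keratin-free ones (0.01, -0.25 to 0.26). The epithelial gate held Wipi1 at 37.3 and 39.6 CPM, which is 5.41-fold and 7.32-fold above macrophages. In neutrophils it was at 18.9 and 15.2 CPM in the full gate and at 14.5 and 14.9 CPM in keratin-free cells. Wipi2, its relative, was at 22.2 and 19.2 CPM in macrophages, a log2 ratio of 0.20 (0.09 to 0.32), which was 0.17 (0.04 to 0.30) in keratin-free ones. Atg9a in epithelial cells was at 8.57 CPM in CEP and 11.3 CPM in Vehicle, with an interval that held 0.

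In the conjugation system, macrophages differed little: Atg10 at 7.73 and 8.92 CPM (log2 -0.21, -0.40 to -0.02) and Atg3 at 88.3 and 93.0 CPM (log2 -0.08) were the members farthest below 0. In keratin-free macrophages these were -0.13 and -0.04, with intervals that held 0. Atg3 in neutrophils was at 198 CPM in CEP and 241 CPM in Vehicle, a log2 ratio of -0.29 (-0.41 to -0.17), and at 225 and 244 CPM in keratin-free neutrophils (-0.12, -0.24 to 0.00). The summed level of the 7 conjugation genes was 358 CPM in CEP and 415 CPM in Vehicle neutrophils, and 393 and 420 CPM in keratin-free ones (log2 -0.10, -0.19 to -0.0036). In T cells Atg5, the target of ATG12, was at 35.7 and 46.7 CPM and Atg12 at 23.8 and 37.5 CPM, and in epithelial cells Atg7 was at 8.96 and 12.3 CPM and Atg10 at 8.27 and 10.5 CPM. All 4 intervals held 0.

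Of the ATG4 proteases, Atg4a, which acts mainly on GABARAP proteins, was the lowest ratio of any member in macrophages, at 5.61 CPM in CEP and 6.64 CPM in Vehicle (log2 -0.24, -0.46 to -0.02). Atg4b, the most active of them on LC3, had a log2 ratio of -0.10, and Atg4c stood at 9.86 and 10.6 CPM and Atg4d at 13.8 and 13.7 CPM. The intervals of these 3 held 0, as did that of Atg4a in keratin-free macrophages (-0.23, -0.47 to 0.00). Their sum over the 4 genes was 49.3 CPM in CEP and 52.5 CPM in Vehicle macrophages. In neutrophils Atg4a and Atg4c were under 50 UMIs, and in T cells all 4 were, so no ratio is given there. In epithelial cells Atg4a was at 3.70 and 4.46 CPM from 86 and 17 UMIs, with an interval that held 0.

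The LC3 and GABARAP family was nearly level between the libraries in macrophages, at 1275 CPM in CEP and 1236 CPM in Vehicle for its 5 members. Map1lc3a was the member farthest from 0, at 64.4 and 55.9 CPM (log2 0.20, 0.14 to 0.27), and at 60.9 and 55.1 CPM in keratin-free macrophages (0.14, 0.07 to 0.22). Gabarap was at 790 and 768 CPM, Map1lc3b at 269 and 262 CPM, Gabarapl2 at 121 and 119 CPM and Gabarapl1 at 30.9 and 31.0 CPM. None of these 4 was more than 0.04 from 0 on the log2 scale.

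Neutrophils differed in Gabarapl1, a family member that binds LC3-interacting motifs as the others do. Its level was 20.5 CPM (16.7 to 24.9) in CEP and 12.6 CPM (9.92 to 15.9) in Vehicle, from 101 and 74 UMIs. That is a log2 ratio of 0.69 (0.25 to 1.15), in a gate where 81.9% of genes had a lower ratio and 22% were past 1.5-fold higher in CEP. The intervals of the levels did not overlap. In keratin-free neutrophils the log2 ratio was 0.72 (0.24 to 1.21). Keratin-free neutrophils without granule, interferon or Ccl3 and Ccl4 marking held Gabarapl1 at 25.3 CPM in CEP and 12.4 CPM in Vehicle. They were 68.3% of CEP and 69.4% of Vehicle keratin-free neutrophils. In the full gate the 13 mitochondrial transcripts had a median log2 ratio of 0.88 and the 21 dissociation and heat genes one of 0.21, beside 0.12 over all genes. In keratin-free neutrophils these medians were 0.54 and 0.13, beside 0.00, and their part in the result was not tested. Macrophage markers summed to 1460 CPM in CEP and 1215 CPM in Vehicle keratin-free neutrophils, and macrophages held Gabarapl1 at 30.9 and 31.0 CPM. The part of this macrophage marker RNA was not tested either. Gabarap and Map1lc3b were lower in CEP neutrophils in the full gate, at 1298 against 1412 CPM and 743 against 810 CPM, both with a log2 ratio of -0.12. In keratin-free neutrophils they were at 1459 and 1430 CPM and at 830 and 818 CPM, on the other side of 0 with intervals that held it.

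In T cells Map1lc3b was at 255 CPM in CEP and 315 CPM in Vehicle, a log2 ratio of -0.30 (-0.55 to -0.06), and at 224 and 264 CPM in marker-free T cells (-0.23, -0.55 to 0.08). Map1lc3a was at 41.1 and 58.6 CPM from 38 and 64 UMIs, with an interval that held 0. In epithelial cells Gabarap was at 468 and 508 CPM (log2 -0.12) and Gabarapl2 at 211 and 231 CPM (log2 -0.13), while Map1lc3a, at 147 and 146 CPM, and Map1lc3b, at 283 and 278 CPM, differed by at most 0.02 on the log2 scale. Gabarapl1 in epithelial cells was at 20.9 and 17.6 CPM, a log2 ratio of 0.24 (-0.12 to 0.64). It was at 26.1 and 18.6 CPM in those not cycling (0.47, 0.02 to 0.99) and at 14.5 and 16.2 CPM in cycling ones, from 152 and 26 UMIs.

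**Figure D4:**
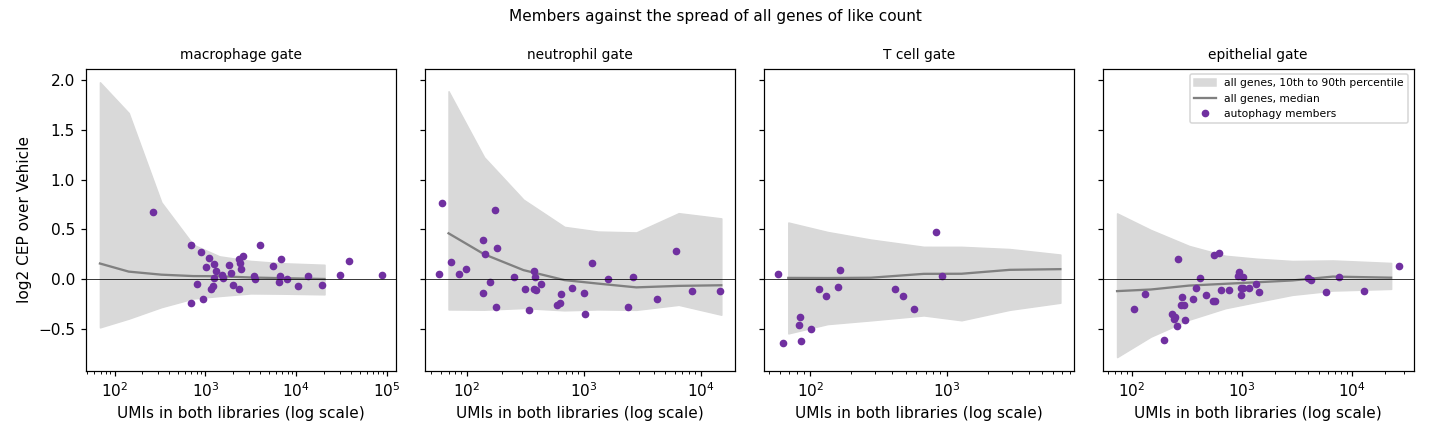
The log2 ratio of CEP over Vehicle for each member (purple points) against its UMIs summed over both libraries (log scale), with the median (line) and the 10th to 90th percentile (grey) of all genes of like count in the gate. Most members lie inside the grey band, and the band is wide and lifted above 0 for low counts in macrophages and neutrophils.

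Among cargo receptors, Sqstm1 was higher in CEP in each of the 4 gates, and the difference was smaller in cells without keratin UMIs in all 3 leukocyte gates. In the full gates, 79.8% of genes had a lower ratio than Sqstm1 in macrophages and 62.2% in neutrophils. In T cells 89.5% had, and in epithelial cells 78.3%. In macrophages it was at 361 CPM in CEP and 319 CPM in Vehicle, a log2 ratio of 0.18 (0.15 to 0.21), and at 328 and 316 CPM in keratin-free cells (0.05, 0.02 to 0.08). In cycling macrophages it was at 315 and 252 CPM in all cells (0.32) and at 260 and 248 CPM in keratin-free ones (0.07). In T cells it was at 491 and 354 CPM, a log2 ratio of 0.47 (0.27 to 0.67), and at 394 and 375 CPM in marker-free T cells (0.07, -0.18 to 0.32). Neutrophils kept more of the difference: 631 and 520 CPM, a log2 ratio of 0.28 (0.21 to 0.35), and 587 and 520 CPM in keratin-free cells (0.17, 0.10 to 0.25). Within keratin-free neutrophils Sqstm1 was at 334 and 258 CPM in granule-marked cells and at 610 and 539 CPM in unmarked ones, while Ccl3 and Ccl4 marked cells, at 648 and 649 CPM, and interferon-marked cells, at 674 and 647 CPM, were nearly level. In epithelial cells it was at 1010 and 921 CPM, a log2 ratio of 0.13 (0.08 to 0.19), at 1228 and 1043 CPM in those not cycling, and at 745 and 754 CPM in cycling ones. In 1 sub-gate it was lower in CEP beyond counting error: macrophages with a UMI of Gpnmb, a lysosomal glycoprotein, had Sqstm1 at 411 CPM in CEP and 559 CPM in Vehicle (log2 -0.44, -0.60 to -0.28), and at 374 and 566 CPM in keratin-free ones. Those were 223 CEP and 62 Vehicle cells.

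Optn was the member past 1.5-fold in macrophages, at 2.89 CPM in CEP and 1.82 CPM in Vehicle, a log2 ratio of 0.67 (0.31 to 1.04), and at 2.66 and 1.64 CPM in keratin-free cells (0.70, 0.29 to 1.12). It rests on 150 and 112 UMIs. Neutrophil marker RNA in the macrophage gate summed to 2651 CPM in CEP and 2182 CPM in Vehicle, 2.43% and 1.68% of its level in neutrophils. In keratin-free macrophages it summed to 2812 CPM in CEP and 2173 CPM in Vehicle. Its part in the Optn and Atg2a values was not tested. In Arg1-marked macrophages Optn was at 2.95 and 1.65 CPM, from 93 and 58 UMIs (log2 0.83, 0.35 to 1.34), and in cycling ones at 1.99 and 1.72 CPM, with an interval that held 0. Nbr1, a receptor related to p62, was at 28.0 CPM in CEP and 34.8 CPM in Vehicle neutrophils, a log2 ratio of -0.31 (-0.64 to 0.00), and at 27.0 and 35.2 CPM in keratin-free ones (-0.38, -0.73 to -0.04). In macrophages its log2 ratio was 0.16 (0.05 to 0.28). Tax1bp1, a receptor for ubiquitinated cargo that helps deliver aggregates, was at 364 and 418 CPM in neutrophils (log2 -0.20) and at 396 and 424 CPM in keratin-free ones (log2 -0.10). Calcoco1 was at 14.6 and 11.1 CPM in neutrophils, from 72 and 65 UMIs, with an interval that held 0.

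**Figure D5:**
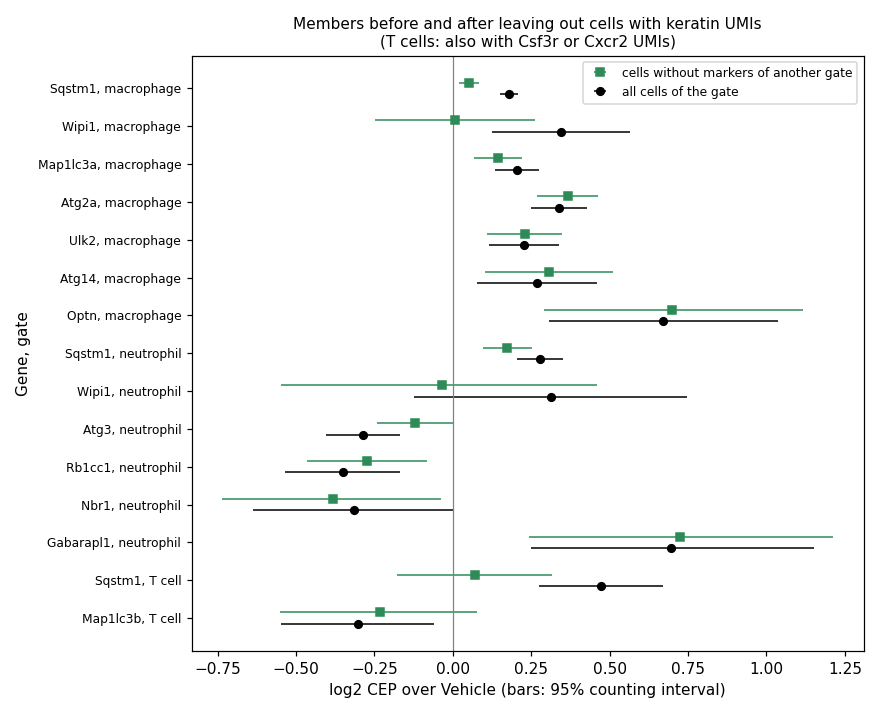
The log2 ratio of CEP over Vehicle for 15 pairs of a member and a gate, with bars for the 95% counting interval. Black circles are all cells of the gate, and green squares are cells without keratin UMIs (for T cells also without Csf3r or Cxcr2 UMIs). In the green squares, Sqstm1 moves toward 0 in macrophages, neutrophils and T cells and Wipi1 in macrophages and neutrophils. Atg2a, Ulk2, Atg14 and Optn in macrophages and Gabarapl1 and Nbr1 in neutrophils keep about the same ratio.

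Genes around the machinery gave few differences in macrophages. Of 19 measured genes that feed mTORC1, AMPK or stress signals into the pathway, 4 were past 1.2-fold higher in CEP (13.7% of all genes) and 1 lower (6.75%). In keratin-free macrophages 1 was higher (7.42%) and 1 lower (7.53%). The higher one there was Flcn, a regulator of mTORC1 at lysosomes, at 32.0 CPM in CEP and 26.4 CPM in Vehicle (log2 0.28, 0.18 to 0.38), with 0.33 (0.23 to 0.44) in keratin-free cells. Sesn3, a stress-induced inhibitor of mTORC1, was at 14.8 CPM in CEP and 8.02 CPM in Vehicle (log2 0.89, 0.72 to 1.05), and at 6.47 and 6.89 CPM in keratin-free macrophages. The epithelial gate held it at 192 and 199 CPM. Ddit4, another inhibitor of mTORC1, was at 125 and 102 CPM, and at 107 and 101 CPM in keratin-free ones. Sesn1, a relative of Sesn3, was lower at 14.2 and 17.5 CPM (log2 -0.30) and kept a log2 ratio of -0.27 (-0.41 to -0.12) in keratin-free cells. Of the 16 other genes of autophagosome formation, 0 were higher and 1 was lower: Rubcnl, which encodes the autophagy enhancer Pacer, at 5.88 and 8.58 CPM (log2 -0.54, -0.75 to -0.34), with -0.45 in keratin-free cells. None of the 7 MiT-TFE and FOXO genes that regulate autophagy transcription, the 16 genes of fusion with lysosomes, the 15 other selective receptors or the 8 measured genes of the NRF2 module passed 1.2-fold in the full macrophage gate. In keratin-free macrophages 2 of the other receptors did, named after their values were seen: Tollip, at 24.8 and 20.4 CPM (log2 0.29, 0.16 to 0.41), and Bcl2l13, at 11.1 and 9.21 CPM (0.27, 0.09 to 0.45). In the full gate these had log2 ratios of 0.24 and 0.26, just under the line.

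In neutrophils the same lists had 5 higher and 2 lower of 16 measured (mTORC1, AMPK and stress), 1 and 0 of 7 (MiT-TFE and FOXO), 3 and 1 of 13 (other autophagosome formation), 1 and 3 of 15 (fusion), 3 and 3 of 13 (other receptors) and 2 and 0 of 8 (NRF2), in a gate where 38.8% of all genes were past 1.2-fold higher and 12.7% lower. In keratin-free neutrophils the counts were 1 and 3 of 13, 3 and 0 of 7, 2 and 3 of 13, 1 and 0 of 15, 1 and 2 of 13, and 2 and 0 of 8, beside 15.6% and 13.3%. Sesn3 was at 33.1 CPM in CEP and 10.1 CPM in Vehicle, and its log2 ratio of 1.71 became 0.09 (-0.71 to 0.86) in keratin-free neutrophils. Wdfy3, a large adaptor for aggregate removal, was at 45.4 and 62.8 CPM (log2 -0.47), with -0.33 (-0.58 to -0.08) in keratin-free cells. Vps11, a subunit of the tethering complexes of late endosomes and lysosomes, was at 22.1 and 15.7 CPM, with a keratin-free log2 ratio of 0.55 (0.10 to 0.99). In T cells, in the same order, 2 were higher and 1 lower of 6, 1 and 1 of 2, 0 and 3 of 7, 4 and 2 of 9, 1 and 3 of 9, and 2 and 1 of 6, beside 23.6% and 22.7% of all genes. In marker-free T cells they were 0 and 1 of 3, 1 and 0 of 1, 0 and 2 of 6, 3 and 0 of 8, 1 and 1 of 6, and 3 and 3 of 6, beside 21.3% and 21.7%. In the full T cell gate Hmox1, an NRF2 target that degrades haem, was at 55.2 and 105 CPM (log2 -0.92, -1.44 to -0.44), and its log2 ratio was -0.89 (-1.61 to -0.24) in marker-free T cells. In epithelial cells the counts were 2 and 4 of 18, 0 and 2 of 6, 2 and 3 of 15, 2 and 1 of 16, 1 and 3 of 14, and 0 and 2 of 9, beside 11.3% and 17.4% of all genes. Epithelial cells also had less Hmox1 in CEP, at 43.0 and 63.7 CPM (log2 -0.57, -0.77 to -0.36), and more Epg5, a tether for autophagosome fusion, at 5.30 and 2.10 CPM from 123 and 8 UMIs (log2 1.26, 0.31 to 2.58).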

How the data were processed

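The 2 libraries, 1 per group, were assigned by title. Per the labels, tumours were digested with enzymes, and cells were enriched with CD45 beads before 3' version 3 droplet capture. The deposited matrices hold raw UMI counts for 32285 gene models, per the file headers. The submitters' processing notes name Cell Ranger 5.0.1 and mm10, but 7.1.0 stands in the file headers. These versions differ in their default for reads in introns, and no source used here gives the setting or its strand handling, which bears on 13 members whose gene models overlap a gene on the opposite strand.

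Cells had to show 200 genes or more and 15% mitochondrial UMIs or less, which left 9544 in CEP and 9932 in Vehicle. Gates used raw UMIs: macrophage, C1qa, C1qb and C1qc summing to at least 10. Neutrophil cells had Csf3r and Cxcr2 summing to at least 1, and T cells Cd3d, Cd3e and Cd3g to at least 2, each with under 3 C1q UMIs. Epithelial cells had Krt8 and Krt18 summing to at least 10 with under 10 C1q UMIs. A cell could pass more than 1 gate (49 CEP and 38 Vehicle cells). Scrublet's automatic threshold marked 0 cells in each library, which is no working doublet call, so doublets were left in and the highest 8% of scores were removed only as an alternative. Sub-gates were Gpnmb at least 1, Mki67 and Top2a at least 2 and Arg1 at least 3 in macrophages, and Camp, Ngp and Ltf at least 3 (granule), Rsad2, Ifit1 and Ifit3 at least 3 (interferon) and Ccl3 and Ccl4 at least 5 in neutrophils.

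UMIs were summed per gate and library and scaled to 1000000. Log2 ratios of CEP over Vehicle had 0.5 UMI added, with exact conditional binomial 95% intervals, and levels had exact Poisson intervals. PCR and library preparation add error that these intervals do not hold. A member was measured in a gate at 50 UMIs or more over both libraries. Named ratios were those past 1.2-fold and, in macrophages, the 5 highest and 5 lowest, with up to 3 genes per other list and gate. Values given for other members, in sub-gates and in keratin-free cells were chosen after they were seen. The members, the gene lists and the gates were chosen with earlier results of these data known. The ratio and its intervals were tested on counts simulated with Poisson error only. That is the error the intervals assume, so the test cannot show how they hold with spread between animals, cells or libraries. Software was scanpy 1.11.5 (with Scrublet), scipy 1.17.1, numpy 2.4.6, pandas 2.3.3 and matplotlib 3.10.9 under Python 3.11.15. Alternatives changed the cell filter, doublets, gates, weighting, depth, denominator, centring and minimum count.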

Additional observations from a re-analysis of the deposited data

Results flagged for a closer look

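Atg14, the subunit that takes the class III kinase to forming autophagosomes, was higher in CEP in macrophages (log2 0.27) and lower in CEP in epithelial cells (log2 -0.62), with neither counting interval holding 0. The difference between the gates was not tested, since each group is 1 library. The values rest on 454 CEP and 448 Vehicle UMIs in macrophages and on 156 CEP and 39 Vehicle UMIs in epithelial cells.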

How the results depend on the processing

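No paired analysis was possible because each group is 1 library and the labels carry no shared replicate numbers. The median log2 ratio of the members stayed within 0.1 of its value under the alternatives run, except in neutrophils, where it became -0.15 with the median of all genes set to 0, and in T cells, where it became 0.11 over 9 members with stricter gates, 0.14 over 5 thinned and 0.00 over 37 with a minimum of 1 UMI. Counts of members past 1.2-fold moved more, and the shares of all genes higher and lower in CEP, given here in brackets, moved as well. In macrophages 4 (13.7% and 6.75%) became 2 without the highest 8% of Scrublet scores (11.4% and 6.86%) and 11 with cells thinned to 1000 UMIs (12.4% and 11.5%). In neutrophils 9 (38.8% and 12.7%) became 4 with cells of exactly 1 gate (18.4% and 12.5%), 4 with stricter gates (29.8% and 14%), 4 with a minimum of 200 UMIs (26.5% and 13.3%) and 3 without keratin UMIs (15.6% and 13.3%), an alternative added after seeing the data. In T cells 7 (23.6% and 22.7%) became 3 with stricter gates (23% and 23.9%), 2 when thinned (19.3% and 23.1%), 2 with a minimum of 200 UMIs (17.8% and 18.5%), 21 with a minimum of 1 UMI (33.1% and 32.4%) and 4 in marker-free cells (21.3% and 21.7%), also added after seeing the data. In epithelial cells 8 (11.3% and 17.4%) became 4 when thinned (25.4% and 25.8%). The split of higher against lower also moved with the mean of per-cell CPM, to 3 and 1 in macrophages (12.2% and 7.94%) and 3 and 6 in T cells (23.6% and 25.9%), while neutrophils had 2 and 6 (20.3% and 19%) and epithelial cells 0 and 8 (13.9% and 20.1%). Without mitochondrial and ribosomal genes it was 6 and 2 in neutrophils (41.4% and 10.2%) and 0 and 9 in epithelial cells (10.8% and 18.1%). Thinning leaves fewer counts by construction, so that 34 macrophage, 5 T cell and 8 epithelial members stayed measured. For the rest the cause was not tested. Atg14 in macrophages turned to -0.0013 when thinned (-0.66 to 0.65), its interval holding the full value. A value of a single member was counted as moved where it left the counting interval of its main value. Of the other such values, 25 moved and 311 did not. Some of the 311 were fixed by construction, so the tally does not measure stability. A changed minimum count leaves a ratio as it is. The macrophage gate kept the same cells under the limit to cells of exactly 1 gate. The epithelial gate kept the same cells under both changes of the cell filter. Depth limits T cells most, where 22 of 37 members had under 50 UMIs.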
